A study of Mus musculus with 6 samples.

Results

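The genes described here encode the laminin chains, the nidogens, perlecan (Hspg2), agrin (Agrn), dystroglycan (Dag1) and the integrin alpha and beta chains of the embryonic mouse pancreas. They were taken by gene symbol, with no use of measured values, and 42 of the 24062 genes in the tables matched: 11 laminin chains, 18 integrin alpha chains, 8 integrin beta chains and 5 other genes. Of the 42, 34 reached 5 CPM (counts scaled to a common library size with TMM factors) in at least 1 library and 8 did not.

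Laminins are secreted as trimers of 1 alpha, 1 beta and 1 gamma chain, and they polymerise into the first layer of a basement membrane. Nidogens, perlecan and agrin join that layer to the type IV collagen network. Cells hold on to it through dystroglycan and through integrins, which are dimers of 1 alpha and 1 beta chain whose combination sets the ligand. In the developing pancreas a basement membrane lies between the branching epithelium and the mesenchyme around it.

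RNA was sequenced from cells sorted out of dorsal pancreatic buds, with 1 library for each of 6 groups. Control embryos carried the mTmG reporter, a transgene that turns from Tomato to GFP fluorescence on Cre recombination. They gave an epithelial library at E12.5, a mesenchymal library at E12.5 and an epithelial library at E14.5. The genotype of the other 3 libraries includes mTmG+/-, Nkx2.5-Cre+/- and Pbx2+/-. Nkx2-5, whose locus drives that Cre, is a transcription factor of the heart and of the splanchnic mesenchyme. Sorted fractions were pooled before RNA extraction, the number of embryos per pool is not given in the sources used here, and the labels do not say how GFP cells arose in embryos listed with mTmG alone. With n = 1 library per group no test across samples was possible, so no p-value is given, no difference has a replicate check, and each ratio of 2 libraries carries a 95% interval that covers counting error only.

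The libraries held 14032569 to 20276045 counts on genes. As a check of the labels, Pbx2 was read at 89.9 CPM (control) and 56.0 CPM (labelled mutant) in mesenchyme, at 54.5 and 49.7 CPM in E12.5 epithelium, and at 34.0 and 47.3 CPM in E14.5 epithelium. At E14.5 that order is opposite to the label, so each of these 3 libraries is called "labelled mutant" throughout. Nkx2-5 stood at 41.2 and 66.8 CPM in the mesenchyme and at 0 to 3.68 CPM in the epithelium. The 25 epithelial markers summed to 3788 to 8069 CPM in the 4 epithelial libraries. In the control and labelled mutant mesenchyme they summed to 88.47 and 69.07 CPM, and 5 and 6 of them were at 0. The 28 mesenchymal markers summed to 12850 and 11590 CPM in the mesenchyme and, in the epithelial libraries, to 6249 and 7312 CPM at E12.5 and 6721 and 13640 CPM at E14.5. Every epithelial library therefore held mesenchymal transcripts, and their sum was highest in the labelled mutant E14.5 epithelium. That sum is weighted toward abundant matrix genes such as Col3a1, and single markers differed in direction. Col3a1, Lum and Foxf1 were higher in that library than in both mesenchymal libraries, whereas Tcf21, Zeb2, Twist1 and Meox1 were lower than in both. The sum therefore does not rank that library above the mesenchyme for mesenchymal markers in general. In sorted pools, fewer cells of a type and less RNA per cell cannot be told apart.

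A gene counted as measured in a comparison with 5 CPM or more in either library. It was called higher or lower when the libraries differed 2-fold or more and the counting interval of the ratio did not include 1. In each sentence of levels below, the control library comes first and the labelled mutant second. Counts of calls are also given relative to a marker list. There the ratio is divided by the median ratio of the mesenchymal markers, or of the epithelial markers where both libraries are epithelial. A ratio of 1 on that scale means that the gene differed between the libraries as much as the median marker did. In the fraction pairs the median marker was itself higher in the mesenchyme. Lower there means a smaller ratio of mesenchyme to epithelium than that marker had, not a lower level in the mesenchyme. In those pairs the scaling does not correct for mesenchymal transcripts in the epithelial libraries.

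At E12.5, more laminin and integrin chains were called lower in the mesenchyme than were called higher, in both pairs. In the control pair, 3 of the 29 measured members were called higher in the mesenchyme and 14 lower, where 7.0% of all measured genes were called higher and 13.6% lower. In the labelled mutant pair, 4 of 27 were called higher, 10 lower and 13 neither, against 5.42% and 12.9% of all genes called higher and lower. The members' median log2 ratio was -0.95 in the control pair and -0.24 in the labelled mutant pair, and the median over all genes was 0.03 in each. Relative to the mesenchymal markers, whose median log2 ratio was 1.22 and 0.67 in these pairs, the counts became 1 higher and 21 lower in the control and 2 higher and 13 lower in the labelled mutant. Over all genes, 119 of 12066 were then called higher and 7868 lower in the control pair. In the labelled mutant pair 186 of 11956 were called higher and 3140 lower, so lower calls on that scale were common among all genes. Dag1, Hspg2 and Nid2 became lower calls in both pairs on that scale, and Itga4, Itgav, Itgb1 and Lamb1 in the control pair. In the control pair Lama1, Lamb2, Agrn, Itga5, Itga9, Itgav, Itgb1 and Itgb5 were higher in the mesenchyme on the TMM scale, but less so than the median mesenchymal marker. The same held for Lama2, Lamb1, Lamb2, Agrn, Itga5 and Itgb1 in the labelled mutant pair.

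These pairs share no library. Itga8 and Nid1 were called higher in the mesenchyme in both, which is 66.7% of the control's higher calls and 50.0% of the labelled mutant's, against 34.8% and 45.4% over all genes. Members called lower in both, among them Lama4, Lama5, Lamc1, Itga1, Itga3, Itga6 and Itgb4, made up 57.1% and 80.0% of the lower calls, against 70.7% and 75.1% over all genes. Of the 24 members measured in both pairs, 21 (87.5%) had a ratio in the same direction, as did 73.7% of all genes measured in both. Whether the members differ from other genes in this was not tested.

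**Figure D1:**
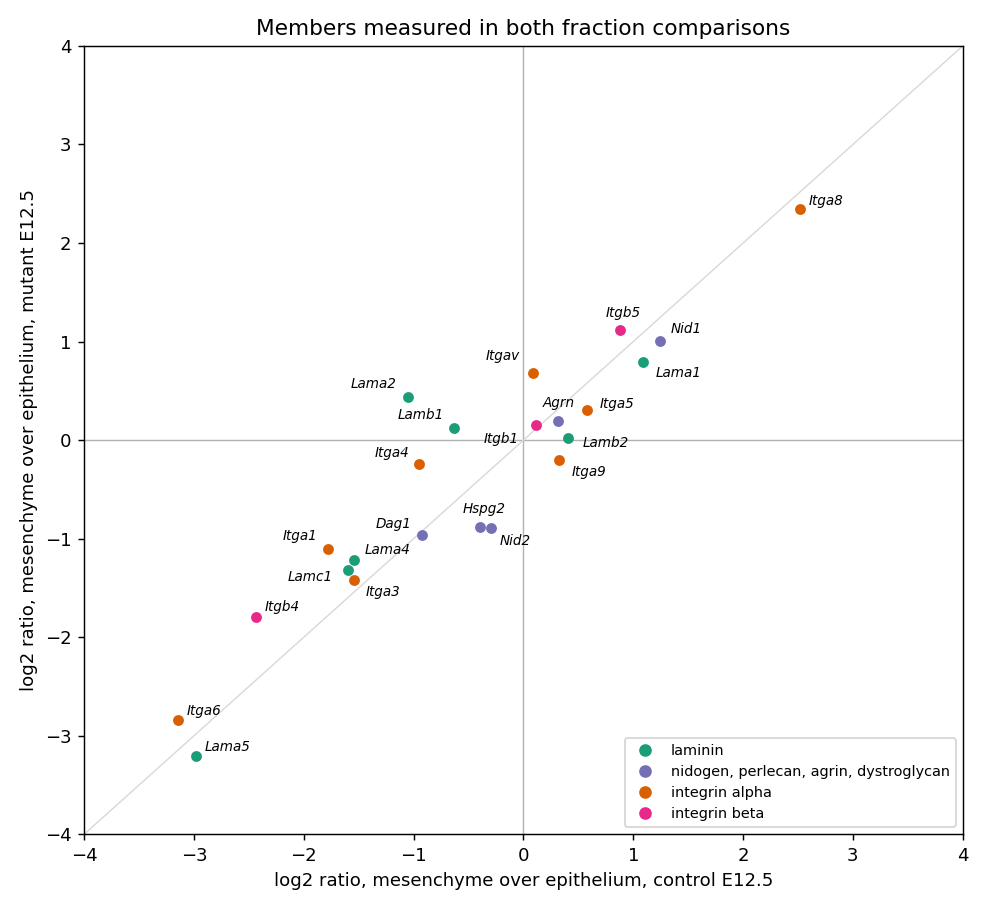
Log2 ratio of mesenchyme over epithelium at E12.5 for members measured in both pairs, with the control pair on the x axis, the labelled mutant pair on the y axis, 1 point per gene and the diagonal at equal ratios. Itga8 and Nid1 lie at the upper right and Lama5 and Itga6 at the lower left, while Lama1 lies above 0 on this scale. Its control ratio was just below that of the median mesenchymal marker, which was itself higher in the mesenchyme.

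The bases before the start of 4 of these genes are printed as the promoters of members called higher (Itga8, Nid1) or lower (Lama5, Itga1) in the mesenchyme in both pairs. They are the genes among those 10 calls with a single window in the RefSeq table for GRCm38.p6, the assembly that mm10 denotes. The windows are chr2:12301945-12302194 on the minus strand for Itga8, chr13:13437352-13437550 on the plus strand for Nid1, chr2:180225860-180226109 on the minus strand for Lama5, and chr13:115101965-115102214 on the minus strand for Itga1. Each runs 5′ to 3′ toward the start. Capitals mark the GC box GGGCGG, bound by Sp1-type factors, and the word TGATNNAT, which Pbx and Hox proteins bind together, each on either strand.
Itga8: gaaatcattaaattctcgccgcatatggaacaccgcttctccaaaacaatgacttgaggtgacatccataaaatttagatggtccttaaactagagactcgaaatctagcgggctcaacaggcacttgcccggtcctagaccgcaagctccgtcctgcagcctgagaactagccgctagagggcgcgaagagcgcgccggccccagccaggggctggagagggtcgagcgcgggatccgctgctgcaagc
Nid1: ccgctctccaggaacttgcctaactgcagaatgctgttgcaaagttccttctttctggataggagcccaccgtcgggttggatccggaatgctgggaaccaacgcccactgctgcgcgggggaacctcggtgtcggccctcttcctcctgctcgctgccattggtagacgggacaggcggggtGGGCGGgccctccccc
Lama5: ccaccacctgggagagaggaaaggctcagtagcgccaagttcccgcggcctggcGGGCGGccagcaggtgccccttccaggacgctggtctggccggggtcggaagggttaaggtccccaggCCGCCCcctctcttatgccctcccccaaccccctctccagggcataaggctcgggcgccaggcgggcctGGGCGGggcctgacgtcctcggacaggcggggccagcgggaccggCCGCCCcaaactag
Itga1: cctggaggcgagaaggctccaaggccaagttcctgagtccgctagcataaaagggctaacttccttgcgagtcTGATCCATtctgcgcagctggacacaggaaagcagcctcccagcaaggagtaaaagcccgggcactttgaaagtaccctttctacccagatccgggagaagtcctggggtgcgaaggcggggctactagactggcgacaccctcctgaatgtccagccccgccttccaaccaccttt
The Lama5 window held 4 GC boxes, the Nid1 window 1, and the Itga8 and Itga1 windows 0. The Itga1 window held 1 TGATNNAT word. Of the 42 members, 27 had at least 1 window, and 32 windows of 250 bases were searched. The GC box was in 15 of the 32, from 12 members, against 32.7% of all 32851 windows in the table. TGATNNAT was in 2 of the 32 (Itga1 and Itga9), against 7.68% of all windows. TGACAG, the word of Meis and Pknox proteins, was in 8, from 6 members, against 15.9%, and TATAAA was in 0 against 12.4%. Windows of 1 gene are not independent, and those of Dag1 overlap. The members' windows had a median GC content of 60.8% and 11 CpG dinucleotides, against 52.4% and 6 over all windows. A match describes letters in the window and not a bound site.

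The laminin alpha chains, which carry the cell-binding domains of the trimer, divided between the fractions. Lama5, the alpha chain of most mature epithelial basement membranes, stood at 64.2 and 38.0 CPM in E12.5 epithelium, 8.12 and 4.12 CPM in E12.5 mesenchyme, and 26.0 and 17.3 CPM in E14.5 epithelium. It was 7.91-fold lower in the control mesenchyme (interval 6.56 to 9.61) and 9.24-fold lower in the labelled mutant mesenchyme (7.13 to 12.2). Every epithelial library was above both mesenchymal libraries.

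Lama1, the alpha chain of the earliest embryonic basement membranes, stood at 45.1 and 40.8 CPM in E12.5 epithelium, 96.2 and 70.5 CPM in the mesenchyme, and 15.8 and 10.7 CPM in E14.5 epithelium. The mesenchyme was the higher fraction, by 2.13-fold in the control (1.96 to 2.32) and by 1.73-fold in the labelled mutant (1.56 to 1.91), the latter short of a call. The control ratio lay 1.09-fold below that of the median mesenchymal marker, and the labelled mutant ratio 1.08-fold above it. Lama1 thus differed between the fractions about as much as that marker.

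Lama4, a chain typical of endothelial and other mesodermal basement membranes, stood at 25.8 and 30.3 CPM in E12.5 epithelium, 8.85 and 13.1 CPM in the mesenchyme, and 38.6 and 79.4 CPM in E14.5 epithelium. It was 2.91-fold (2.4 to 3.55) and 2.32-fold (1.96 to 2.75) lower in the mesenchyme. Endothelial markers were also lower in the mesenchyme at E12.5. Of 24, which summed to 735.5 and 837.8 CPM in E12.5 epithelium, 22 and 21 reached 5 CPM there and 6 and 7 in the mesenchyme. The mesenchymal sums of 472.2 and 441.9 CPM were carried largely by Ets1 (308 and 225 CPM). In E14.5 epithelium the markers summed to 609.0 and 654.4 CPM, below E12.5, while Lama4 was above its E12.5 level. The endothelial cadherin Cdh5 stood at 20.5 and 23.3 CPM in E12.5 epithelium, at 0 and 0.193 CPM in the mesenchyme, and at 9.86 and 11.8 CPM in E14.5 epithelium. The part of endothelial cells in the Lama4 difference was not tested.

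Lama2, the chain of muscle and nerve basement membranes, was low everywhere: 5.42 and 5.12 CPM in E12.5 epithelium, 2.62 and 6.95 CPM in the mesenchyme, and 0 and 0.79 CPM in E14.5 epithelium. It was called 2.07-fold lower in the control mesenchyme (1.43 to 3.06) but was 1.36-fold higher in the labelled mutant mesenchyme. Lama3, an alpha chain of skin laminins, did not exceed 1.03 CPM in any library.

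Among the beta and gamma chains, Lamb1 and Lamc1, the partners in most laminins of the embryo, differed in where they lay. Lamb1 stood at 247 and 183 CPM in E12.5 epithelium, 159 and 199 CPM in the mesenchyme, and 182 and 167 CPM in E14.5 epithelium. Lamc1 stood at 236 and 157 CPM in E12.5 epithelium, 77.9 and 62.8 CPM in the mesenchyme, and 192 and 102 CPM in E14.5 epithelium. Lamc1 was 3.04-fold (2.85 to 3.24) and 2.5-fold (2.32 to 2.7) lower in the mesenchyme, whereas Lamb1 was 1.55-fold lower in the control and 1.09-fold higher in the labelled mutant.

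Lamb2, the beta chain of synaptic, kidney and vessel laminins, stood at 63.9 and 43.2 CPM in E12.5 epithelium, 84.6 and 43.9 CPM in the mesenchyme, and 20.7 and 26.6 CPM in E14.5 epithelium, and it was not called between the fractions. Lamb3, a beta chain of skin laminins, did not exceed 4.93 CPM in any library. Lamc3 lay between 1.45 and 4.02 CPM.

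**Figure D2:**
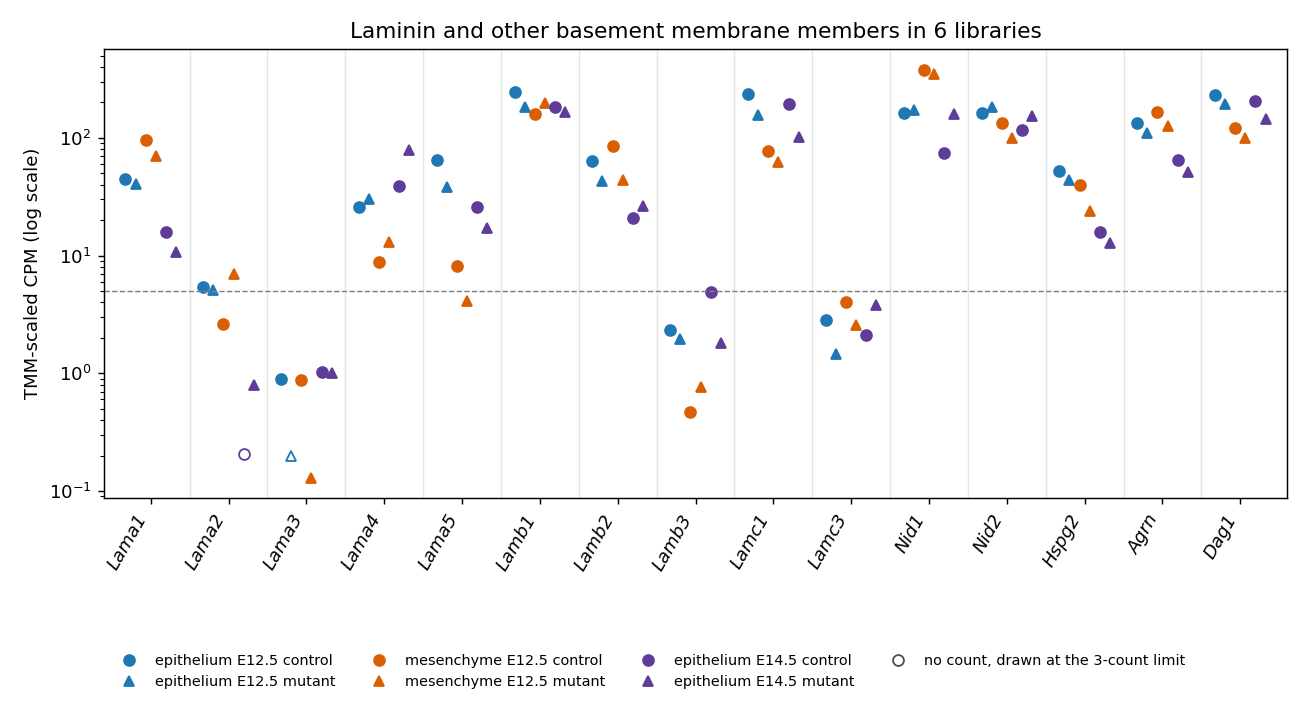
Level in each of the 6 libraries, in TMM-scaled CPM on a log axis, of laminin chains, the nidogens, perlecan, agrin and dystroglycan, with circles for control, triangles for labelled mutant, open symbols for no count and a dashed line at 5 CPM. Lama5 and Lamc1 lie lower in both mesenchymal libraries than in every epithelial library, and Nid1 lies highest there, as does Lama1 on this scale.

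Levels of different chains were compared as CPM per kb of exon. On that scale the alpha chains of the control mesenchyme were 85.5% Lama1 and 6.13% Lama5, and those of the labelled mutant mesenchyme 79.5% and 3.95%. In E12.5 epithelium Lama1 made up 36.3% and 40.6%, Lama5 43.9% and 32.2%, and Lama4 16.6% and 24.2%. At E14.5 Lama4 had the largest share of the alpha chains in both epithelial libraries, at 44.4% in the control and 70.4% in the labelled mutant. By longest transcript Lama4 had a larger share in E12.5 epithelium, 27.9% and 38.0%, which in the labelled mutant was above Lama1 at 32.5%.

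The gamma chains Lamc1 and Lamc3, summed, exceeded the summed alpha chains in the epithelium and fell just short of them in the mesenchyme. Their ratio to the alpha chains was 2.26 and 1.85 in E12.5 epithelium, 0.867 and 0.875 in the mesenchyme, and 3.26 and 1.39 in E14.5 epithelium. The ratio of the beta chains to Lamc1 and Lamc3 was 1.23 and 1.34, then 2.98 and 3.42, and then 0.955 and 1.65 in the same order. In both fractions at E12.5 beta chain transcripts thus exceeded these gamma chains, and the ratio was higher in the mesenchyme. Exon length bears on this: with the longest transcript of each gene in place of all its exons, the ratio of beta chains to Lamc1 and Lamc3 was 1.42 to 2.41 in the epithelial libraries and 3.91 and 4.89 in the mesenchyme, so the order of the fractions held. On that length Lamc1 and Lamc3 fell short of the alpha chains in the labelled mutant E14.5 epithelium too, at 0.883.

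**Figure D3:**
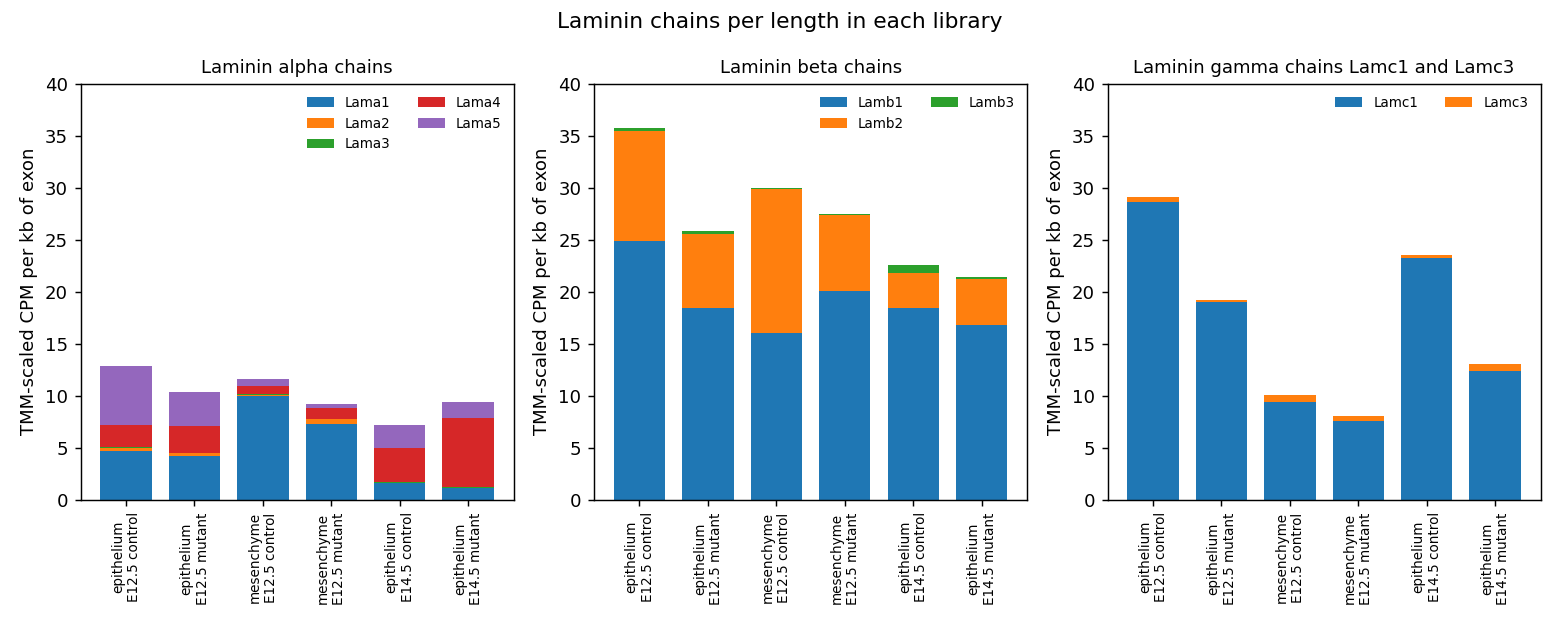
Laminin chains in each library as stacked CPM per kb of exon, by alpha chain, beta chain and the gamma chains Lamc1 and Lamc3. The mesenchymal alpha chains are mostly Lama1, at 85.5% and 79.5%, and the bars of Lamc1 and Lamc3 there are the shortest of the 6 libraries.

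Read as trimers, laminin-111 had Lama1 as its lowest chain in the 4 epithelial libraries and the labelled mutant mesenchyme, and Lamc1 in the control mesenchyme. In the control mesenchyme Lama1 stood at 9.93, Lamb1 at 16.0 and Lamc1 at 9.41 CPM per kb, a 1.7-fold range. In the control E12.5 epithelium the same chains stood at 4.66, 24.9 and 28.6 CPM per kb, a 6.13-fold range. By longest transcript Lama1 was the lowest chain in all 6 libraries, and the ranges were 2.72-fold in the control mesenchyme and 9.0-fold in the control E12.5 epithelium. For laminin-511 the order of the fractions was opposite, with a 5.07-fold range across its chains in the control epithelium and 22.5-fold in the control mesenchyme, where Lama5 was at 0.713 CPM per kb (7.56-fold and 38.5-fold by longest transcript). Of 11 known trimers examined, 8 had every chain at 5 CPM or more in both E12.5 epithelial libraries and 6 in each of the other 4 libraries. The trimers differed between the mesenchymal libraries. Laminin-211 and laminin-221 passed only in the labelled mutant, with Lama2 at 2.62 CPM in the control. Laminin-511 and laminin-521 passed only in the control, with Lama5 at 4.12 CPM in the labelled mutant. In E12.5 epithelium Lama2 was just above the cutoff, at 5.42 and 5.12 CPM. The epithelial libraries also held mesenchymal, endothelial and leukocyte transcripts, so chains that passed together there need not come from the same cells. The counts of trimers therefore do not show that epithelial cells made more of them.

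Nid1, one of the nidogens that bridge laminin and type IV collagen, stood at 161 and 172 CPM in E12.5 epithelium, 380 and 347 CPM in the mesenchyme, and 74.2 and 158 CPM in E14.5 epithelium. It was 2.36-fold (2.26 to 2.47) and 2.01-fold (1.92 to 2.11) higher in the mesenchyme. These ratios lay 1.02-fold and 1.26-fold above that of the median mesenchymal marker, short of a call on that scale. Nid2, its homologue, stood at 164 and 184 CPM in E12.5 epithelium, 134 and 98.8 CPM in the mesenchyme, and 116 and 154 CPM in E14.5 epithelium. Nid1 over Nid2 was 2.12 and 2.61 in the mesenchyme and 0.475 to 0.766 in the 4 epithelial libraries, in CPM per kb. Both nidogens together exceeded Lamc1, the chain that binds them, by 8.56-fold and 9.09-fold in the mesenchyme and by 1.43-fold to 4.24-fold in the epithelium.

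The heparan sulfate proteoglycans and dystroglycan were not called between the fractions on the TMM scale. The ratios of Dag1 lay 4.41-fold and 3.12-fold below that of the median mesenchymal marker, and those of Hspg2 3.05-fold and 2.95-fold below. These were lower calls on the marker scale. Agrn stood at 134 and 110 CPM in E12.5 epithelium, 166 and 126 CPM in the mesenchyme, and 65.2 and 51.6 CPM in E14.5 epithelium. Hspg2 stood at 52.4 and 44.2 CPM, then 39.9 and 23.9 CPM, and then 15.8 and 12.9 CPM in the same libraries. Dag1, the laminin and agrin receptor, stood at 232 and 194 CPM in E12.5 epithelium, 122 and 99.2 CPM in the mesenchyme, and 207 and 144 CPM in E14.5 epithelium. Dag1 came close to a call, at 1.9-fold (1.8 to 2.0) and 1.96-fold (1.84 to 2.08) lower in the mesenchyme. Among the chains of type IV collagen, the other network of the membrane, Col4a1 lay between 140 and 199 CPM and Col4a2 between 78.5 and 113 CPM in the 6 libraries. Col4a5 ranged from 47.3 CPM in the control E12.5 epithelium to 17.7 CPM in the control E14.5 epithelium. Col4a6 stood at 16.7 and 9.46 CPM in E12.5 epithelium, 4.9 and 4.05 CPM in the mesenchyme, and 4.11 and 4.24 CPM in E14.5 epithelium, 4.07-fold lower at E14.5 than at E12.5 in the control (3.09 to 5.44). Col4a3 and Col4a4 did not exceed 1.1 CPM.

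Of the integrins, Itgb1, the beta chain shared by most matrix receptors, varied least on the TMM scale. It stood at 529 and 499 CPM in E12.5 epithelium, 571 and 555 CPM in the mesenchyme, and 526 and 506 CPM in E14.5 epithelium. The highest library was 1.14-fold above the lowest, and at 122 to 140 CPM per kb Itgb1 had the highest level of all 42 members in every library. It exceeded the summed level of its alpha partners by 1.89-fold to 2.82-fold in CPM per kb. By longest transcript this was 1.66-fold to 2.2-fold, with the control E14.5 epithelium at 1.67 in place of 2.78. In the control pair the Itgb1 ratio lay 2.15-fold below that of the median mesenchymal marker. This was a lower call on that scale, although the level of Itgb1 was no lower in the mesenchyme.

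The laminin-binding integrin chains Itga6, Itgb4 and Itga3 were called lower in the mesenchyme in both pairs. Itga6, the alpha chain of the laminin receptors alpha6-beta1 and alpha6-beta4, stood at 107 and 71.5 CPM in E12.5 epithelium, 12.1 and 9.97 CPM in the mesenchyme, and 264 and 75.0 CPM in E14.5 epithelium. It was 8.88-fold (7.62 to 10.4) and 7.17-fold (6.06 to 8.54) lower in the mesenchyme. The control E14.5 epithelium stood apart from the other libraries at 2.47 times the next highest.

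Itgb4, which pairs with Itga6 alone and anchors hemidesmosomes, stood at 12.3 and 6.24 CPM in E12.5 epithelium, 2.28 and 1.8 CPM in the mesenchyme, and 29.5 and 5.03 CPM in E14.5 epithelium. It was 5.41-fold (3.78 to 7.98) and 3.47-fold (2.25 to 5.49) lower in the mesenchyme. Itga3, the alpha chain of the receptor for laminins with Lama3 or Lama5, stood at 44.0 and 47.4 CPM in E12.5 epithelium, 15.2 and 17.7 CPM in the mesenchyme, and 17.7 and 37.4 CPM in E14.5 epithelium, 2.91-fold and 2.68-fold lower in the mesenchyme at E12.5. Itga7, a laminin receptor chain best known from muscle, was at 0 and 0.657 CPM in E12.5 epithelium, 0 and 0.193 CPM in the mesenchyme, and 9.04 and 4.6 CPM in E14.5 epithelium.

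**Figure D4:**
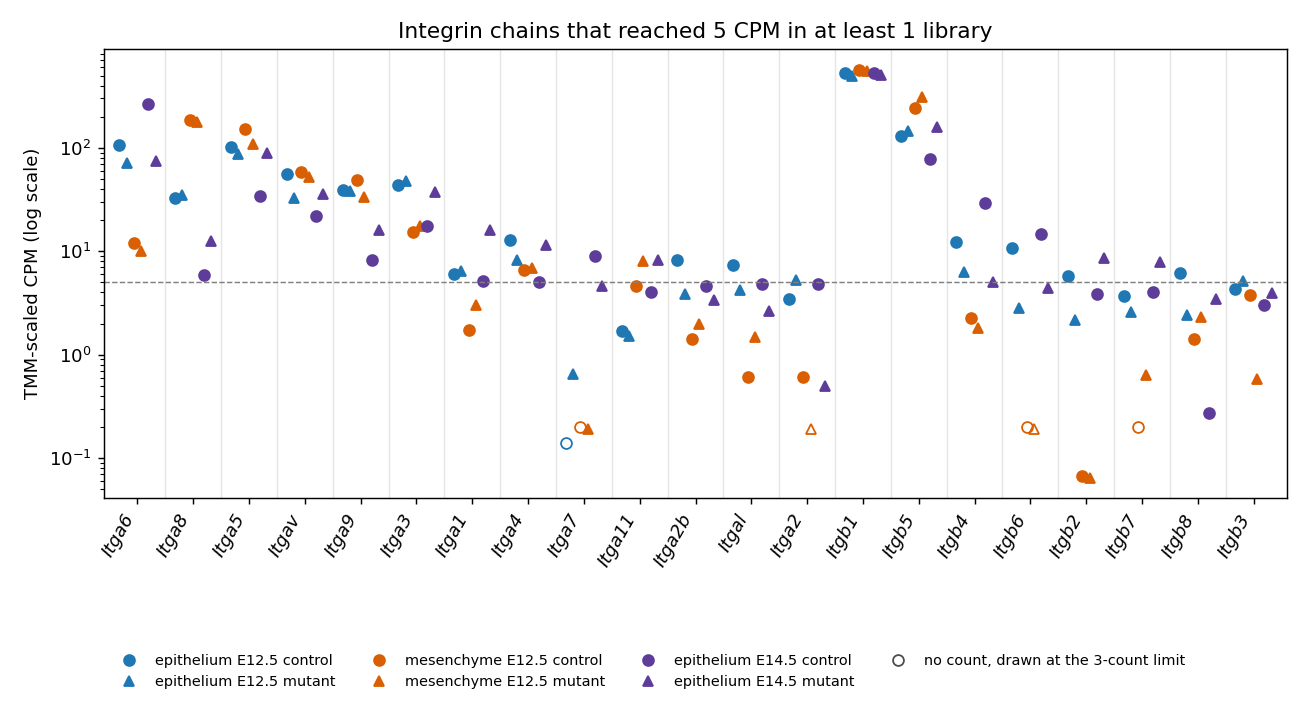
Level in each of the 6 libraries, in TMM-scaled CPM on a log axis, of the integrin alpha and beta chains that reached 5 CPM, with circles for control, triangles for labelled mutant, open symbols for no count and a dashed line at 5 CPM. Itgb1 spans 499 to 571 CPM, Itga8 is highest in both mesenchymal libraries, and Itga6 and Itgb4 are lowest there and highest in the control E14.5 epithelium.

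Chains of the receptors for ligands with an RGD motif, such as fibronectin, vitronectin and nephronectin, divided by chain. Itga8, whose dimer with Itgb1 binds nephronectin, stood at 32.6 and 35.0 CPM in E12.5 epithelium, 186 and 179 CPM in the mesenchyme, and 5.89 and 12.6 CPM in E14.5 epithelium. It was 5.72-fold (5.26 to 6.22) and 5.1-fold (4.65 to 5.61) higher in the mesenchyme, and 2.46-fold and 3.2-fold higher relative to the mesenchymal markers. It was the member with the largest called excess in the control mesenchyme. Npnt, the gene of nephronectin, was in both fractions, at 88.6 and 130 CPM in E12.5 epithelium, 155 and 118 CPM in the mesenchyme, and 47.0 and 66.9 CPM in E14.5 epithelium.

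Itga5, the alpha chain of the main fibronectin receptor, stood at 102 and 87.2 CPM in E12.5 epithelium, 153 and 108 CPM in the mesenchyme, and 34.0 and 89.0 CPM in E14.5 epithelium. Its ligand gene Fn1 stood at 129 and 91.4 CPM, 64.1 and 30.9 CPM, and 34.7 and 37.5 CPM. Itga5 was higher in the mesenchyme at E12.5, but neither ratio between the fractions reached 2-fold. These ratios lay 1.55-fold and 1.29-fold below that of the median mesenchymal marker. Itgav, which pairs with several beta chains, stood at 55.5 and 32.7 CPM in E12.5 epithelium, 58.9 and 52.5 CPM in the mesenchyme, and 22.1 and 36.0 CPM in E14.5 epithelium, and was not called between the fractions.

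The partners of Itgav differed. Itgb5, the beta chain of a vitronectin receptor, stood at 131 and 144 CPM in E12.5 epithelium, 241 and 313 CPM in the mesenchyme, and 78.2 and 158 CPM in E14.5 epithelium, 1.84-fold higher in the control mesenchyme (1.75 to 1.94) and 2.17-fold in the labelled mutant (2.06 to 2.28). Vtn, the vitronectin gene, lay in the other fraction, at 231 and 242 CPM in E12.5 epithelium, 2.01 and 0.129 CPM in the mesenchyme, and 299 and 131 CPM in E14.5 epithelium. The Itgb5 ratio lay 1.26-fold below that of the median mesenchymal marker in the control pair and 1.36-fold above it in the labelled mutant pair.

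Itgb6, an epithelial chain whose dimer with Itgav activates TGF-beta, stood at 10.8 and 2.83 CPM in E12.5 epithelium, at 0 in both mesenchymal libraries, and at 14.7 and 4.38 CPM in E14.5 epithelium. It was at least 53.6-fold lower in the control mesenchyme, with a count of 0 set to 3 counts in that library. Itgb8, which also activates TGF-beta with Itgav, stood at 6.22 and 2.43 CPM in E12.5 epithelium, 1.41 and 2.32 CPM in the mesenchyme, and 0.274 and 3.45 CPM in E14.5 epithelium. It was 4.41-fold lower in the control mesenchyme (2.77 to 7.37). Itgb3, the beta chain of platelets, osteoclasts and vessels, stood at 4.33 and 5.12 CPM, 3.82 and 0.579 CPM, and 3.01 and 3.95 CPM, and was called 8.85-fold lower in the labelled mutant mesenchyme (4.43 to 20.1).

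Collagen receptor chains were low. Itga1 stood at 5.98 and 6.5 CPM in E12.5 epithelium, 1.74 and 3.02 CPM in the mesenchyme, and 5.14 and 16.2 CPM in E14.5 epithelium, 3.43-fold (2.24 to 5.45) and 2.15-fold (1.51 to 3.11) lower in the mesenchyme. Itga2 stood at 3.44 and 5.32 CPM, 0.604 and 0 CPM, and 4.86 and 0.503 CPM, and was at least 27.6-fold lower in the labelled mutant mesenchyme. Itga11, the fibroblast receptor for fibrillar collagen, stood at 1.7 and 1.51 CPM, 4.63 and 8.1 CPM, and 4.04 and 8.26 CPM, and was 5.36-fold higher in the labelled mutant mesenchyme (3.42 to 8.77). Itga2 and Itga11 did not reach 5 CPM in the control pair, and the highest Itga11 level was in the labelled mutant E14.5 epithelium. Itga1 and Itga2 are neighbours on chromosome 13, 21.0 kb apart with 0 protein-coding genes between them. Itga10, the cartilage chain, did not exceed 1.68 CPM.

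Itga4 and Itga9, alpha chains that bind VCAM-1, fibronectin or tenascin-C, were not called between the fractions. Itga4 stood at 12.8 and 8.21 CPM in E12.5 epithelium, 6.64 and 6.95 CPM in the mesenchyme, and 5.07 and 11.4 CPM in E14.5 epithelium. Itga9 stood at 39.4 and 38.2 CPM, 49.4 and 33.3 CPM, and 8.22 and 16.2 CPM. The E14.5 epithelium held the lowest Itga9 levels.

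The integrin chains of blood cells were low, and Itgal, Itgb2, Itga2b and Itgb7 did not reach 5 CPM in either library of the labelled mutant pair. Itgal and Itgb2, the chains of the leukocyte receptor LFA-1, were called lower in the control mesenchyme, 12.2-fold (6.25 to 27.1) and 86.4-fold (15.2 to 3440), the latter on 1 count. Itgal stood at 7.35 and 4.27 CPM in E12.5 epithelium, 0.604 and 1.48 CPM in the mesenchyme, and 4.86 and 2.66 CPM in E14.5 epithelium. Itgb2 stood at 5.79 and 2.17 CPM, 0.0671 and 0.0643 CPM, and 3.84 and 8.69 CPM. The 22 leukocyte markers summed to 706.5 and 450.1 CPM in E12.5 epithelium, 115.4 and 53.38 CPM in the mesenchyme, and 655.7 and 744.8 CPM in E14.5 epithelium, and Ptprc, the common leukocyte antigen, ranged from 0.402 to 7.77 CPM. Both sets were lowest in the mesenchyme, and the part of leukocytes was not tested.

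Itgb7, a lymphocyte chain, stood at 3.72 and 2.56 CPM in E12.5 epithelium, 0 and 0.643 CPM in the mesenchyme, and 4.04 and 7.9 CPM in E14.5 epithelium. Itga2b, the platelet alpha chain, stood at 8.24 and 3.88 CPM, 1.41 and 1.99 CPM, and 4.66 and 3.38 CPM, and was 5.85-fold lower in the control mesenchyme (3.71 to 9.69). The 13 megakaryocyte markers summed to 39.61 and 22.01 CPM, 7.646 and 2.701 CPM, and 28.36 and 46.25 CPM, with Pf4 at 1.03 to 27.1 CPM. Itgae, Itgam, Itgax and Itgad, the remaining leukocyte alpha chains, did not reach 5 CPM in any library, and 68.7% of the exon bases of Itgam are shared with an overlapping gene model.

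Of 24 known integrin dimers examined, 13 and 12 had both chains at 5 CPM or more in E12.5 epithelium, 8 and 9 in the mesenchyme, and 12 and 12 in E14.5 epithelium. Alpha6-beta4 met that in all 4 epithelial libraries and in neither mesenchymal library, and alphav-beta6 in both control epithelial libraries alone. The dimers of Itgb1 with Itga3, Itga4, Itga5, Itga6, Itga8, Itga9 and Itgav did so in all 6 libraries, as did alphav-beta5. As with the trimers, both chains of a dimer need not come from the same cells. The higher counts in the epithelial libraries therefore do not show more dimers in epithelial cells. Among the alpha partners of Itgb1, in CPM per kb, Itga8 made up 34.2% and 39.1% in the mesenchyme and 1.72% to 9.74% in the epithelial libraries. Itga6 made up 1.81% and 1.78% in the mesenchyme, 20.8% and 16.2% in E12.5 epithelium, and 63.1% and 18.9% in E14.5 epithelium. Itga5 held 35.3% to 41.8% in 5 libraries and 14.8% in the control E14.5 epithelium. By longest transcript Itga5 fell to 9.3% in that library, while Itga6 came to 31.6% and 25.5% in E12.5 epithelium, above Itga5 at 29.3% in the control, and to 3.11% and 3.04% in the mesenchyme.

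Between genotypes in the E12.5 mesenchyme, 4.55% of the measured members were called, a share near that of all genes. Lama2 was the 1 of 22 measured members called higher in the labelled mutant mesenchyme, by 2.66-fold (1.83 to 3.93), and 0 were called lower, where 1.96% of all measured genes were called higher and 3.5% lower (5.46% in either direction). The members' median log2 ratio was -0.22, against -0.01 over all genes. Lama5 and Lamb2 came close to a lower call, at 1.97-fold (1.44 to 2.71) and 1.93-fold (1.75 to 2.12), and Hspg2 was 1.67-fold lower (1.46 to 1.9). Itga8, Itgb1 and Nid1 differed by 1.04-fold, 1.03-fold and 1.1-fold. Relative to the mesenchymal markers, Itga11 joined Lama2 as higher, at 2.02-fold, and the number lower remained 0. Over all 11188 measured genes, 347 were then called higher and 271 lower.

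In E12.5 epithelium, Itgb6, Itgb2, Itgb8 and Itga2b were called lower in the labelled mutant and 0 of 31 measured members higher, where 3.21% of all genes were called lower and 1.79% higher. Itgb6 was 3.82-fold lower (2.75 to 5.42), Itgb2 2.67-fold (1.81 to 4.05), Itgb8 2.56-fold (1.76 to 3.79) and Itga2b 2.13-fold (1.57 to 2.91). None of these chains exceeded 10.8 CPM in either library. Itgb4 was 1.98-fold lower (1.56 to 2.53), short of a call, while Lama1, Nid1, Itgb1 and Itga8 differed by at most 1.11-fold. Of 20 measured leukocyte markers, 4 were called lower and 0 higher, with a median log2 ratio of -0.66, and the part of leukocytes in the Itgb2 difference was not tested. Relative to the epithelial markers, Itga2b was 1.86-fold lower and no longer called. Over all 11991 measured genes, 381 were then called higher and 241 lower.

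In E14.5 epithelium the labelled mutant differed most. Of 28 measured members, 10 were called higher and 3 lower, against 9.64% and 6.4% of all genes. The median log2 ratio was 1.06 for the alpha chains, -0.3 for the laminin chains and -0.03 over all genes. The members called lower were the epithelial integrin chains Itgb4, 5.86-fold (4.54 to 7.66), Itga6, 3.53-fold (3.29 to 3.78), and Itgb6, 3.36-fold (2.52 to 4.54).

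The members called higher included the collagen receptor chains Itga1, 3.16-fold (2.42 to 4.16), and Itga11, 2.04-fold (1.48 to 2.85). Among the receptors of fibronectin and other RGD ligands, Itga5 was 2.62-fold (2.36 to 2.91), Itga8 2.13-fold (1.64 to 2.79) and Itgb5 2.02-fold (1.88 to 2.17) higher. Itga4, Itgb2, Itga3, Nid1 and Lama4 were 2.25-fold, 2.27-fold, 2.12-fold, 2.13-fold and 2.06-fold higher. Of these, Itga8, Nid1, Itga5, Itga11 and Itgb5 had higher levels in mesenchyme than in epithelium at E12.5 on the TMM scale, whereas Itga1, Itga3, Itga4, Itgb2 and Lama4 had lower ones. Lamc1 was 1.87-fold lower (1.76 to 2.0) and Lamb1 1.09-fold lower, neither called.

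Markers of several other cell types were called higher as well, though not those of every type. In the labelled mutant E14.5 epithelium, 20 of 27 measured mesenchymal markers were called higher and 0 lower (median log2 ratio 1.26), and 9 of 13 smooth muscle markers and 11 of 15 neural markers were called higher. Of 21 endothelial markers, 5 were called higher and 1 lower. Of 21 leukocyte markers, 3 were called higher and 2 lower, and of 10 mesothelial markers 2 were higher and 0 lower. Of 24 measured epithelial markers, 11 were called lower and 0 higher (median log2 ratio -0.95), and the epithelial cadherin Cdh1 was 2.98-fold lower (2.85 to 3.1). Relative to the epithelial markers, the members' counts became 15 higher and 1 lower. Over all 12145 measured genes, 5298 were called higher and 150 lower on that scale. Itgb4 was then 3.04-fold lower and still called, while Itga6 and Itgb6 were 1.83-fold and 1.74-fold lower and no longer called. The part of the other cell types in the calls was not tested.

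**Figure D5:**
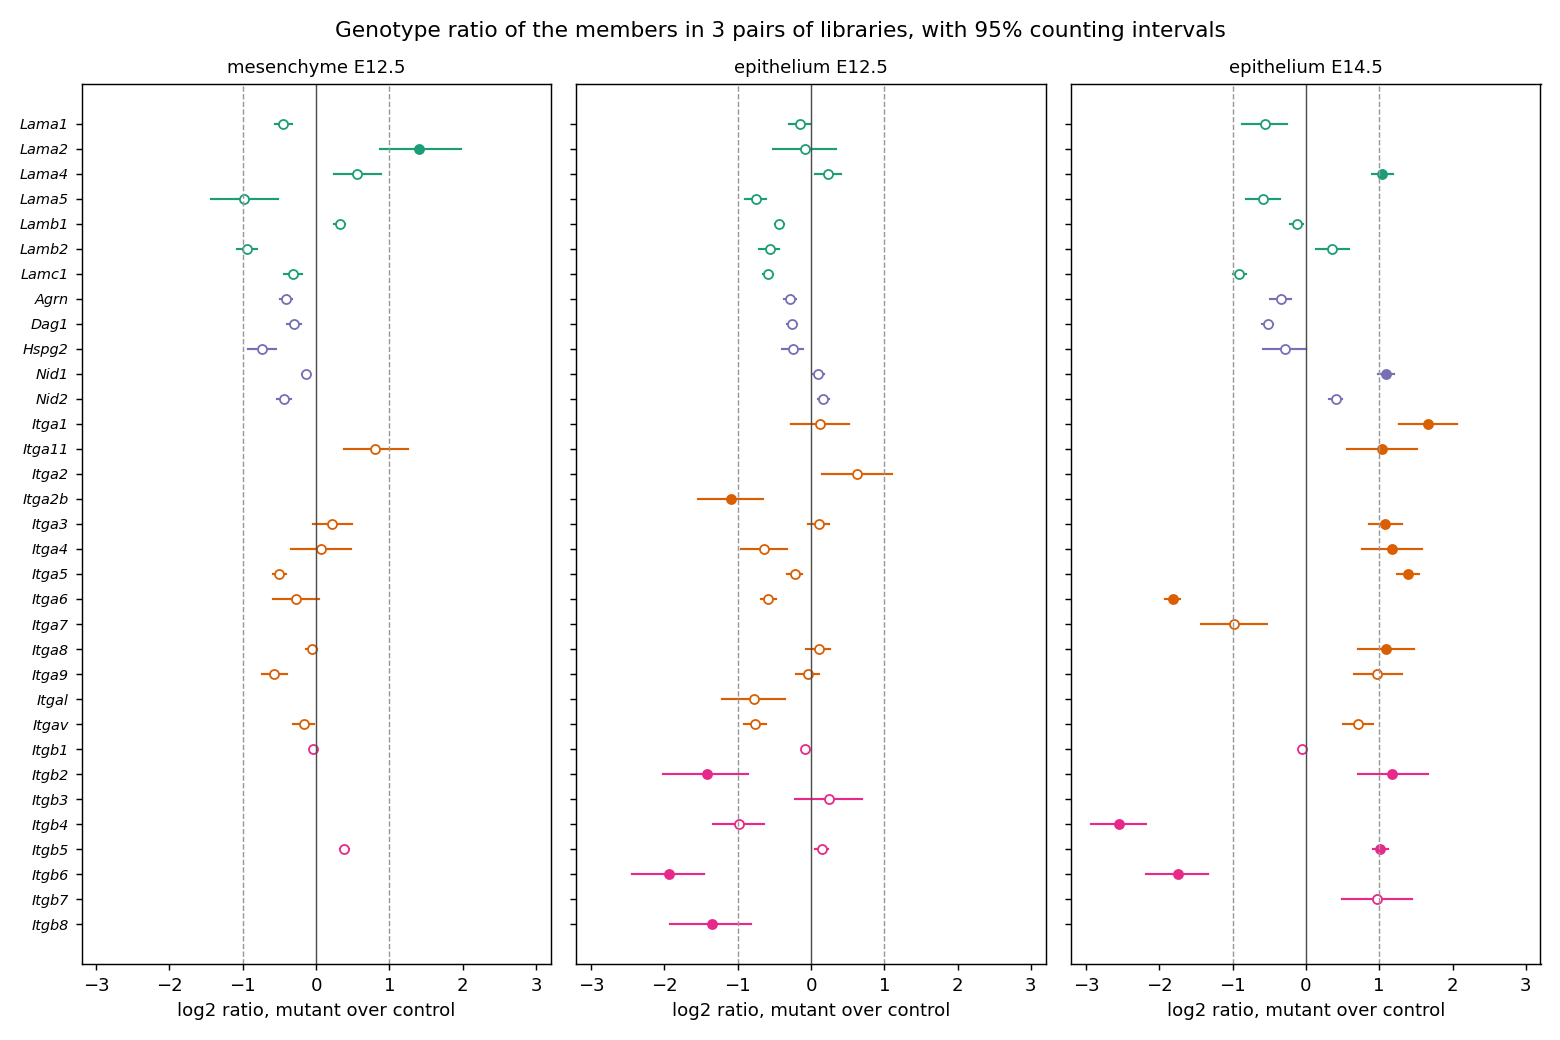
Log2 ratio of labelled mutant over control for measured members in E12.5 mesenchyme, E12.5 epithelium and E14.5 epithelium, with 95% counting intervals as bars, filled points for calls and dashed lines at 2-fold. Most E12.5 ratios lie near 0, while at E14.5 Itga1 and Itga5 lie farthest above 0 and Itgb4 and Itga6 farthest below.

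The 3 genotype pairs share no library, and Itgb6 and Itgb2 were each called in 2 of them. Itgb6 was lower in both epithelial pairs. Itgb2 was lower at E12.5 and higher at E14.5.

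At E14.5 the control epithelium had lower levels of several laminin, perlecan and RGD receptor transcripts than at E12.5, and higher levels of Itga6 and Itgb4. Of 30 measured members, 3 were called higher at E14.5 and 14 lower, against 6.53% and 11.2% of all genes. Itga6 was 2.47-fold (2.34 to 2.6) and Itgb4 2.39-fold (2.04 to 2.79) higher, and Itga7, with no count at E12.5, was at least 64.0-fold higher. The log2 ratios of Itga6 and Itgb4 lay 0.05 apart here, and 0.38 to 1.05 apart in the other comparisons that measured both. Relative to the epithelial markers, whose median log2 ratio was 0.6, the counts were 1 higher and 21 lower, with Itga6 at 1.62-fold and Itgb4 at 1.57-fold higher and neither called. Over all 12136 measured genes, 323 were called higher and 3685 lower on that scale.

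The lower calls in the control covered matrix and receptors. Hspg2 was 3.31-fold (2.87 to 3.83), Lamb2 3.09-fold (2.73 to 3.51), Lama1 2.85-fold (2.47 to 3.31), Lama5 2.47-fold (2.2 to 2.77), Nid1 2.17-fold (2.02 to 2.32) and Agrn 2.06-fold (1.91 to 2.22) lower. Lama2, with no count at E14.5, was at least 26.4-fold lower. Among the receptors, Itgb8 was 22.7-fold (8.66 to 84.5), Itga8 5.53-fold (4.42 to 7.01), Itga9 4.79-fold (3.95 to 5.85) and Itga5 3.0-fold (2.72 to 3.31) lower, and Itga4, Itgav and Itga3 were 2.53-fold, 2.52-fold and 2.49-fold lower. Of 26 measured mesenchymal markers, 8 were called lower and 4 higher, and of 22 endothelial markers 9 were called lower and 0 higher. Their part in these calls was not tested.

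In the labelled mutant epithelium, 5 of 29 measured members were called higher at E14.5 and 8 lower, against 6.27% and 5.89% of all genes. Lama1, Hspg2, Lama5 and Agrn were lower here as well, by 3.81-fold (3.18 to 4.59), 3.42-fold (2.9 to 4.05), 2.2-fold (1.89 to 2.57) and 2.14-fold (1.96 to 2.33), as were Itga8, Itga9 and Lama2, and Itga2 was 10.6-fold lower (4.91 to 27.2). The members called higher were Itga11, Itgb2, Itgb7, Lama4 and Itga1, by 5.47-fold, 4.01-fold, 3.08-fold, 2.62-fold and 2.5-fold. Itga6 and Itga5 differed by 1.05-fold and 1.02-fold, and Itgb4 was 1.24-fold lower (0.902 to 1.72). The stage comparisons use the same epithelial libraries as the genotype comparisons, so their calls are not independent of those above. Of 21 measured leukocyte markers 10 were called higher and 2 lower, as were 7 and 0 of 27 mesenchymal markers (median log2 ratio 0.54), 6 and 2 of 13 smooth muscle markers and 7 and 0 of 16 neural markers. Of 22 endothelial markers, 2 were called higher and 4 lower (median log2 ratio -0.53). The part of these cell types in the higher calls was not tested.

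Other genes of the pathway were taken from 4 lists. Among other basement membrane genes, 3 of 22 were called higher and 7 lower in the control mesenchyme than in epithelium, and 3 of 21 higher and 7 lower in the labelled mutant pair. That is 45.5% and 47.6% called, where 20.6% and 18.3% of all genes were. Smoc1, a matricellular protein of basement membranes, was 53.7-fold lower in the control (39.9 to 74.0) and 12.7-fold lower in the labelled mutant (10.7 to 15.3). Tinagl1, a secreted matrix protein, was 7.89-fold lower in the control (6.37 to 9.88). In the labelled mutant pair Tinagl1 stood at 25.6 CPM in epithelium and 13.8 CPM in mesenchyme and was not called.

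Among 21 other integrin ligands, 4 were higher and 9 lower in the control pair (61.9% called), and 1 was higher and 11 lower in the labelled mutant pair (57.1%). Spp1, the gene of osteopontin, was 834-fold lower in the control mesenchyme (556 to 1320), from 1290 CPM in the epithelium to 1.54 CPM, and 373-fold lower in that of the labelled mutant (275 to 520). Of 27 measured integrin adaptors and linkers, which join integrin tails to actin, 1 was higher and 6 lower in the control mesenchyme and 0 and 7 in that of the labelled mutant. That is 25.9% called in each pair, where 20.6% and 18.3% of all genes were. Most of these calls were lower calls, which made up 13.6% and 12.9% of all genes. Whether the adaptors differ from other genes in this was not tested. Fermt1, the epithelial kindlin, had no count in either mesenchymal library and stood at 37.3 and 27.9 CPM in E12.5 epithelium and 28.8 and 16.3 CPM at E14.5. Fermt2, the more widely expressed kindlin, was in all 6 libraries at 68.8 to 128 CPM.

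Of 25 genes of the dystroglycan complex and its glycosylation, 1 was higher and 4 lower in the control pair, and 0 were higher and 5 lower in the labelled mutant pair. This too was near the share of all genes. Dmd, the dystrophin gene, was 21.3-fold lower in the control mesenchyme (15.7 to 29.5) and 7.55-fold lower in that of the labelled mutant (6.01 to 9.6).

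In the E14.5 genotype pair, 8 of 21 integrin ligands were called higher and 2 lower, and 1 of 28 adaptors was higher and 0 lower, where 9.64% of all genes were called higher and 6.4% lower. Tnc, the tenascin-C gene and a ligand of integrin alpha9-beta1, had no count in the control E14.5 epithelium and was at least 55.2-fold higher in the labelled mutant, at 11.3 CPM. Tnc stood at 26.0 and 50.7 CPM in E12.5 epithelium and at 17.2 and 22.4 CPM in the mesenchyme.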

How the data were processed

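RNA from sorted dorsal pancreatic bud cells was measured in 6 libraries, 1 per group. The authors deposited raw counts per gene symbol, described as deduplicated in the table names, a step that caps abundant genes most. The submitters' processing notes name mm10, Cufflinks 2.2.1 and Cuffdiff 2.2.1. The sources used here do not give the aligner, counter, annotation or use of strand, so overlapping genes are uncertain. Summary lines were kept out of totals: reads on no gene made up 4.69% to 8.837%, ambiguous reads 1.529% to 1.723% and reads with several alignments 13.72% to 20.05% of all reads.

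Counts were scaled to CPM with TMM factors of 0.941 to 1.047 from edgeR 4.0.16 in R 4.3.3. Ratios of 2 libraries, with exact 95% Clopper-Pearson intervals, were computed in Python 3.11.15 (numpy 2.4.6, pandas 2.3.3, scipy 1.17.1, matplotlib 3.10.9). Intervals and floors cover counting error only, since reads that carry no molecular identifier need not be independent molecules. A count of 0 was set to a floor of 3 counts in that library, 0.141 to 0.215 CPM. Exon lengths and positions came from GENCODE M21 on the same assembly as mm10. Levels were divided by the summed exon length of the gene, or by its longest transcript as an alternative.

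Every member entered the counts of calls. Levels in all libraries were printed for members at 5 CPM or more that were called or belong to a complex present in a library, and from each list up to 4 genes of at least 10 CPM ranked by the bound of the fold interval that is closer to 1, plus a few ligand, adaptor and marker genes chosen after their values were seen. The members, lists and thresholds were chosen with earlier results of these data known. An item of the genotype and some genes are not reported here.

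The steps of the method were run on simulated data for the control fraction comparison. Of 100 genes raised and 100 lowered by 1.5 on the log2 scale among 11664, 100% were called, and 0% of unchanged genes. The change set lay beyond the 2-fold threshold, and the counting intervals held their nominal coverage, at 95.3%. The run therefore checks the calculation under counting error alone. It gives no rate of false calls between libraries, which cannot be estimated with 1 library per group. Alternatives were DESeq2 1.42.0 size factors, plain CPM, scaling to marker lists, a filter at 1 CPM or none, a 1.5-fold threshold and no interval condition.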

Additional observations from a re-analysis of the deposited data

Results flagged for a closer look

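The Itgb2 ratio of labelled mutant over control epithelium was called in opposite directions at the 2 stages, with a log2 ratio of -1.42 at E12.5 and 1.18 at E14.5. Itgb2 stood at 5.79 and 2.17 CPM at E12.5 and at 3.84 and 8.69 CPM at E14.5. The difference between the stages was not tested, since each group has 1 library. Leukocyte markers summed to 706.5 and 450.1 CPM at E12.5 and to 655.7 and 744.8 CPM at E14.5 in the same libraries, and their part in the Itgb2 ratios was not tested.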

How the results depend on the processing

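No paired analysis was possible because each group has 1 library, and for the same reason no replicate could be left out. Scaling to a marker list shifted the median of all genes by -1.22, -0.67, 0.21, 0.19, 0.95, -0.6 and -0.12 on the log2 scale, in the order control and labelled mutant fraction pairs, genotype pairs in mesenchyme, E12.5 and E14.5 epithelium, and control and labelled mutant stage pairs. It changed the number of members called higher to 1 in the control fraction pair, 2 in the labelled mutant fraction pair, 2 in the mesenchymal genotype pair and 1 in the control stage pair, and the number called lower at E14.5 between genotypes to 1. Among all genes, the share of calls that were higher went from 34.0% to 1.49% in the control fraction pair. In the labelled mutant fraction pair that share went from 29.6% to 5.59%. It went from 60.1% to 97.2% at E14.5 between genotypes, and from 36.9% to 8.06% in the control stage pair. Lama1 in the control fraction pair came to a log2 ratio of -0.13, just below the median mesenchymal marker. Of 196 single ratios, 148 moved beyond their interval under that scaling, 12 under plain CPM and 0 under DESeq2 size factors. Plain CPM shifted the control stage pair by -0.15, and the share of all calls that were higher went from 36.9% to 24.3%.

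With a filter at 1 CPM, and likewise with none, members called higher numbered 5 in the control fraction pair, 5 in the control stage pair and 9 in the labelled mutant stage pair, and 5 were lower at E14.5 between genotypes. In the mesenchymal genotype pair 2 were higher and 2 lower at 1 CPM, and 3 and 4 with no filter. In the E12.5 epithelial genotype pair 1 was higher and 8 lower with no filter. At 1.5-fold, the mesenchymal genotype pair had 2 higher and 3 lower, the E12.5 epithelial pair 1 and 11, and the E14.5 pair 6 lower. DESeq2 size factors gave 5 lower in the last. Other counts stayed within 1.5 times the reported ones under these alternatives and with no interval condition.

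By longest transcript, laminin beta chains over Lamc1 and Lamc3 came to 1.73 and 1.9 in E12.5 epithelium, 3.91 and 4.89 in the mesenchyme, and 1.42 and 2.41 in E14.5 epithelium. Lamc1 and Lamc3 over the alpha chains came to 2.06 and 1.58 in E12.5 epithelium, and 2.45 and 0.883 at E14.5. Counting depth limits the folds of members near 0, such as Itgb2, with 1 count in each mesenchymal library.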
